A study of Mus musculus with 18 samples.

Results

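Antibody genes were measured in bulk RNA of mouse mammary tumors and normal mammary glands. The genes described here are the immunoglobulin V segments (Ighv, Igkv, Iglv), the heavy and light constant regions and Jchain. A row of the count table was taken when its symbol named one of these genes and it held at least 10 expected counts in at least 3 of the 18 samples. Of 55450 genes in the table, 360 bore such a symbol, 217 of these had any count, and 61 met the count rule. These 61 were 11 Ighv, 36 Igkv and 3 Iglv segments, 6 heavy constant regions, 4 light constant regions and Jchain. The members were thus chosen by their measured counts: 21 met the rule in the tumors alone, and 40 met it only when the glands were counted too. Just inside the rule, Igkv15-103, Igkv14-126, Igkv8-21, Ighv1-19 and Igkv4-91 each had a third-highest count of 10.0. Just outside it, Igkv4-57, Igkv9-120 and Igkv4-74 reached 9.0, Igkv8-30 reached 8.99 and Igkv3-7 reached 8.0.

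The 18 samples were from female mice of C57Bl/6 J background. The 5 B1/P/Rbf tumors carried Brca1fl/fl, Trp53fl/fl and the transgene TgK18GT121Tg/+. The 5 B1/P tumors carried Brca1fl/fl and Trp53fl/fl, and the 5 P/Rbf tumors carried Trp53fl/fl and TgK18GT121Tg/+, so that all 15 tumors shared the floxed Trp53 alleles. The 3 normal glands were wild type. Per the methods of the study, Cre recombinase was delivered to adult mammary ducts by an adenovirus, and the transgene expresses a fragment of the SV40 large T antigen from the keratin 18 promoter, which inactivates the Rb family in epithelial cells. The Cre of the virus was under the CMV promoter, which is not specific to a cell type, and recombination in lymphocytes was not tested here. The sources used here do not say whether the normal glands were injected. Each sample was a different mouse, and samples are named by group and mouse number.

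An antibody is built of heavy and light chains, each with a variable part, encoded by 1 of many germline V segments that is joined to short D or J segments, and a constant part. The heavy constant region sets the isotype: Ighm gives IgM, the Ighg genes give the IgG subclasses, and Igha gives IgA. The light chain is kappa (Igkc) or lambda (Iglc genes), and Jchain encodes the joining chain that links IgM and dimeric IgA. Naive B cells make IgM and IgD, which they keep on the surface, whereas plasma cells secrete antibody at very high RNA levels. Plasma cells of the mammary gland are known for the IgA that the polymeric immunoglobulin receptor Pigr carries into milk.

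The libraries held between 27661173 and 37794889 expected counts, with a median of 33802255. The 61 genes took between 0.000195% and 0.0650% of these, from 57 counts in P/Rbf tumor 290845 to 23154 counts in gland 330155. The depth of many tumors was thus low for these genes. Tumors 225068, 208863, 209490, 290860 and 290845 held 141 member counts or fewer. In bulk RNA, fewer antibody-making cells and less antibody RNA per cell cannot be told apart.

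The samples were first checked against marker genes, because the same transcripts come from B cells and from plasma cells. The 15 B cell markers (Ms4a1, Cd79a, Pax5 and others) summed to between 701 and 941 CPM in the glands, where CPM is the count scaled to a common library size with edgeR's TMM factors. In the tumors they summed to between 3.78 and 26.4 CPM, and all 15 were called lower in each tumor genotype by edgeR's quasi-likelihood test. The list of lymph node stroma and naive lymphocyte homing genes (Ccl21a, Cxcl13 and others) summed to between 720.2 and 1120.5 CPM in the glands and to between 0.572 and 48.6 CPM in the tumors. Of its 8 tested genes 7 were called lower in each tumor genotype. The exception was Madcam1, an adhesion molecule of mucosal vessels, which had 46.8 CPM in B1/P/Rbf tumor 210906, the tumor with the highest list sum and the highest antibody sum, against 1.32 to 2.65 CPM in glands. Its part in the antibody level of that tumor was not tested. T cell markers summed to between 428 and 612 CPM in glands and to between 30.5 and 197 CPM in tumors. Mzb1, an endoplasmic reticulum protein of antibody-secreting cells, was at 5.35 to 13.6 CPM in glands and at 0.0254 to 1.07 CPM in tumors. Tnfrsf17, the plasma cell receptor BCMA, reached at most 0.237 CPM in a gland and 0.126 CPM in a tumor and was not tested. The 16 plasma cell markers together summed to more in many tumors than in glands (596 to 3081 CPM against 712 to 819 CPM). Sdc1 and Xbp1, which epithelial cells also express, held 123 to 2409 CPM and 114 to 1766 CPM of these in the tumors. Of the 15 tested plasma cell markers 3, 2 and 2 were called higher and 4, 5 and 4 lower than in glands in B1/P/Rbf, in B1/P and in P/Rbf tumors, where 17.1%, 16.8% and 17.4% of all tested genes were called higher and 20.0%, 16.9% and 20.3% lower, so that nothing is read from these counts. Prdm1, a transcription factor of plasma cells, was at 5.96 to 34.9 CPM in tumors and at 2.15 to 3.63 CPM in glands and was called higher in all 3. Derl3 reached 22.8 CPM in a tumor and at most 1.44 CPM in glands, and was called higher in B1/P/Rbf alone. Pou2af1 was at 102 CPM in B1/P tumor 246361, at 0.0631 to 19.2 CPM in the other tumors and at 23.4 to 44.5 CPM in glands. In the glands the members stood beside a full set of B cell genes, whose part in the gland levels was not tested. The genes are therefore called immunoglobulin genes here and are not assigned to plasma cells.

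The immunoglobulin level varied more among mice than between tumor genotypes. The 61 genes summed to 185, 50.7, 3.89, 3.17 and 301 CPM in B1/P/Rbf tumors 208855, 208857, 208863, 209490 and 210906. The sums were 3.85, 29.0, 94.7, 20.6 and 12.8 CPM in B1/P tumors 225068, 225070, 246361, 255232 and 248662. They were 110, 16.9, 2.71, 76.1 and 1.94 CPM in P/Rbf tumors 287842, 287845, 290860, 287822 and 290845. The highest tumor was 155-fold above the lowest, and the ranges of the 3 genotypes overlapped. The group means were 109 ± 131 (SD, n = 5), 32.2 ± 36.1 (SD, n = 5) and 41.6 ± 49.0 (SD, n = 5) CPM in that order. The glands held 444, 758 and 521 CPM, with a mean of 574 ± 163 (SD, n = 3), and every gland was above every tumor. Adipocyte markers summed to between 9948 and 14181 CPM in glands and to between 2.76 and 173 CPM in tumors. Epithelial markers summed to between 2104 and 2488 CPM in glands and to between 1637 and 12285 CPM in tumors. The part of this tissue make-up in the antibody levels was not tested.

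Among the heavy constant regions, per kilobase of coding sequence, Ighm led in most tumors. Ighm, which encodes the constant region of IgM (GRCm38, chromosome 12 from 113418558 to 113422730, minus strand), had 84.5, 23.4, 1.41, 1.70 and 173 CPM in the B1/P/Rbf tumors in the order given above. It had 2.80, 8.20, 16.0, 10.6 and 6.31 CPM in the B1/P tumors, 41.1, 10.2, 1.85, 6.76 and 0.919 CPM in the P/Rbf tumors, and 256, 375 and 265 CPM in glands 330154, 330155 and 330156. No tumor reached the lowest gland, and B1/P/Rbf tumors 208855 and 210906 were the nearest to it. In edgeR's quasi-likelihood test across 19186 genes, Ighm was lower than in the glands in B1/P tumors (log2 fold change -5.09 ± 1.29, adjusted p = 0.00614) and in P/Rbf tumors (-4.62 ± 1.27, adjusted p = 0.00876), where ± marks the standard error. In B1/P/Rbf tumors edgeR's value of -2.40 ± 1.19 did not pass (adjusted p = 0.124), and without tumor 210906 it was -3.43 with an adjusted p of 0.0441. limma-voom also called it (adjusted p = 0.00361), and the B1/P call was lost with a term for 2 sets of libraries that the labels do not name (adjusted p = 0.0678). These sets were all B1/P/Rbf tumors with B1/P tumors 225068, 225070 and 246361, against all other samples. Only B1/P falls in both, so that set and group can be told apart only through the B1/P tumors in comparisons of B1/P/Rbf with P/Rbf or glands. The study describes pooling of all 18 samples for sequencing and names no such sets, so the term was used only as an alternative.

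Igkc, the kappa constant region (chromosome 6 from 70726435 to 70726966), had the same 3 highest tumors as Ighm, 210906, 208855 and 287842. Its B1/P/Rbf levels were 41.8, 13.7, 0.882, 0.482 and 72.4 CPM. The B1/P tumors had 0.0636, 5.66, 20.2, 5.18 and 1.70 CPM. The remaining levels were 33.1, 1.45, 0.329, 16.3 and 0.0340 CPM in P/Rbf tumors and 91.6, 162 and 119 CPM in glands. The glands lay above all tumors, but the spread among tumors was wide, and edgeR's quasi-likelihood test called no genotype lower (adjusted p = 0.266 for B1/P/Rbf, 0.0542 for B1/P and 0.0861 for P/Rbf). The B1/P value was called by DESeq2 (adjusted p = 0.0112) and by limma-voom (adjusted p = 0.0081), as was the P/Rbf value (0.0319 and 0.00646), and limma-voom also called the B1/P/Rbf value (0.0152).

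Jchain (chromosome 5 from 88519809 to 88527891) overlapped between tumors and glands. Levels were 5.64, 2.51, 0.193, 0.254 and 11.7 CPM in the B1/P/Rbf group, 0.254, 2.10, 5.83, 0.532 and 0.757 CPM in B1/P tumors and 7.54, 0.284, 0.152, 8.11 and 0.170 CPM in P/Rbf tumors. The glands had 6.02, 25.9 and 14.2 CPM, so that 3 tumors exceeded the lowest gland. edgeR's quasi-likelihood test did not call Jchain in any genotype against the glands, with log2 fold changes of -1.92 ± 1.36, -3.01 ± 1.39 and -2.24 ± 1.36 for the 3 genotypes in the order given (adjusted p = 0.282, 0.103 and 0.208). The only promoter window of a member in the reference table was that of Jchain. It held no octamer ATGCAAAT, the motif of immunoglobulin promoters, on either strand (reverse ATTTGCAT), a motif found in 1.74% of the 32851 windows of the same length (300 bases), and none with 1 mismatch allowed, which 18.6% of windows had.

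**Figure D1:**
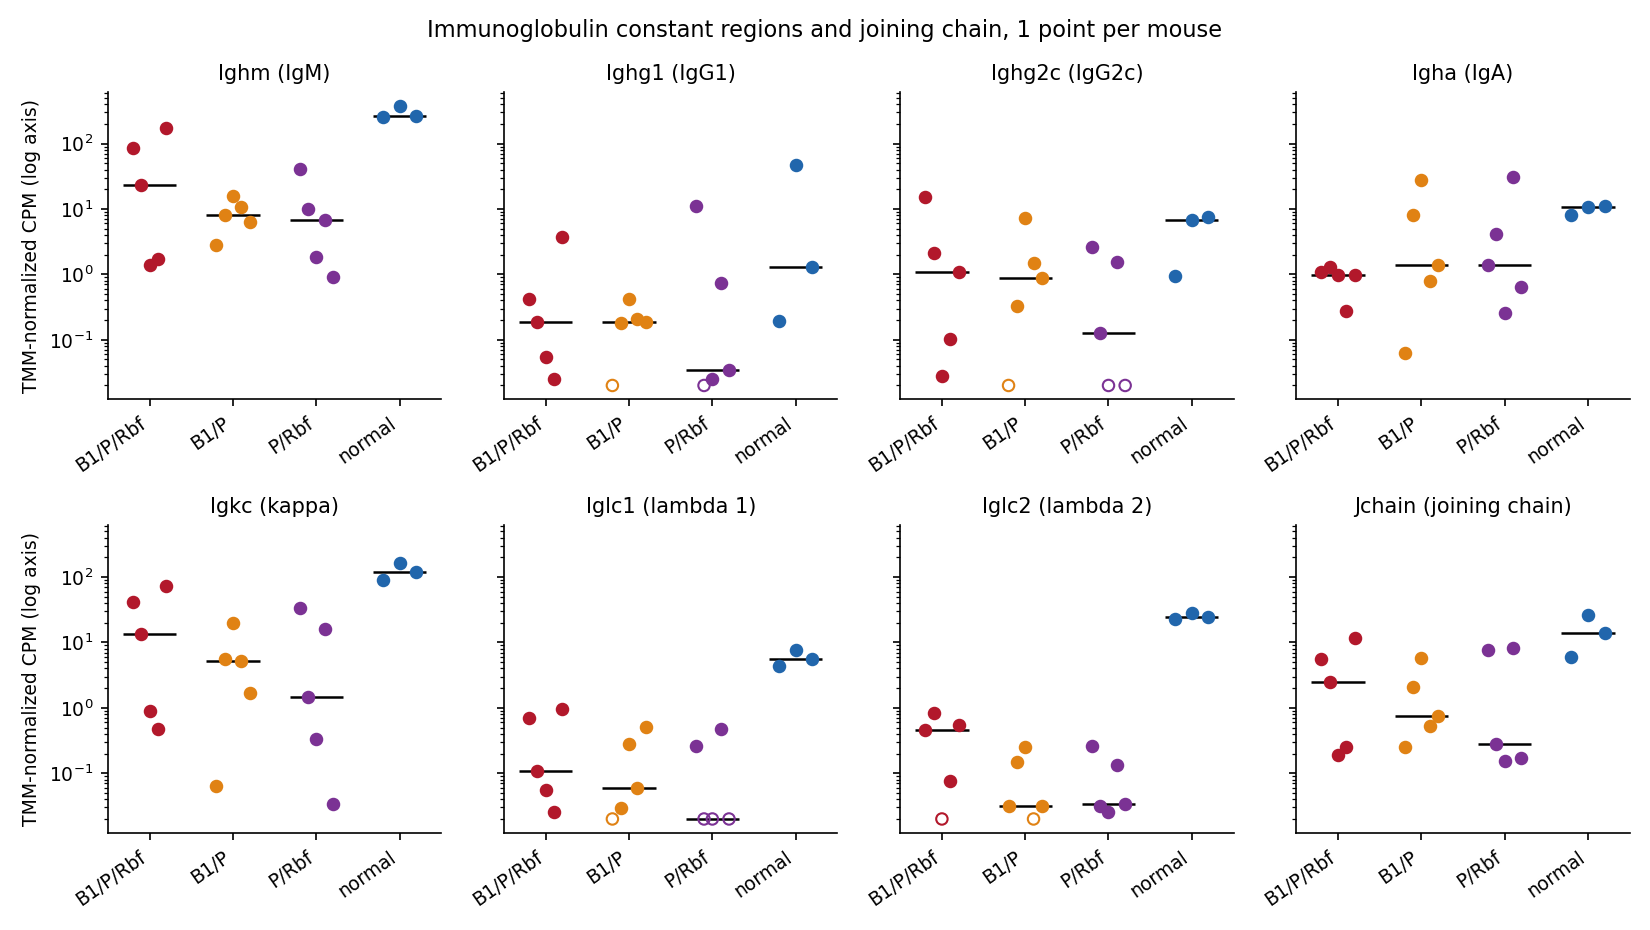
Levels of 8 antibody genes in TMM-normalized CPM on a log axis, 1 point per mouse, with a bar at the median of each group; open points at 0.02 CPM stand for values below that level. Iglc2 lay between 22.9 and 27.7 CPM in the glands and at 0.836 CPM or less in all tumors, whereas Igha of tumors 246361 and 287822 stood above all glands.

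The members were read against how B cells and plasma cells share these transcripts, with ratios that were chosen after the values were seen and carry no test. Ighd, the IgD constant region, which is not a member, stood at 0.418 to 0.521 counts per Ighm count in the glands. In the tumors the ratio was between 0.00235 and 0.196, below every gland. Ighm counts were 2.60 to 3.11 times those of Cd79a, a part of the B cell receptor, in the glands and 7.11 to 288 times in the tumors. Jchain counts were 0.0661 to 0.215 of the Cd79a counts in the glands and 0.684 to 22.1 in the tumors. The fourth ratio taken, Jchain to Ighm, overlapped, with 0.0236 to 0.0692 in the glands and 0.0295 to 1.198 in the tumors, 4 of which lay within the gland range. The ranges did not overlap in the first 3 ratios, and the tumor ratios to Cd79a rest on Cd79a levels between 0.0827 and 1.48 CPM.

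The isotypes were compared per kilobase of coding sequence, since the constant regions differ in length, as shares of all heavy constant RNA in a sample. IgM led in 12 of 15 tumors and in all 3 glands. IgM made up 94.3%, 78.8% and 87.4% of heavy constant RNA in the glands. In tumors with at least 100 heavy constant counts it ranged from 14.0% to 93.5%. All 5 B1/P/Rbf tumors were led by IgM, as were 3 B1/P and 4 P/Rbf tumors.

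IgA led in the remaining 3 tumors. Its share was 52.4% in B1/P tumor 225070 (95% Wilson interval 48.3% to 56.5%), 54.9% in B1/P tumor 246361 (52.8% to 57.0%) and 78.0% in P/Rbf tumor 287822 (76.0% to 79.9%). The glands had 3.64%, 2.77% and 4.41%. B1/P/Rbf tumor 208863 (42.9%, 33.1% to 53.4%) and P/Rbf tumor 290845 (45.2%, 31.7% to 59.4%) were also high but rested on 91 and 47 heavy constant counts, and P/Rbf tumor 287845 had 32.6% (28.4% to 37.2%). At the other end stood B1/P/Rbf tumors 210906 with 0.644% and 208855 with 1.11%. The intervals take the length-weighted share and the sample's counts, and cover counting error only. They do not cover the choice of length. Tumor 225070 had 274 Igha and 277 Ighm counts, so its IgA lead rests on the coding lengths (1166 and 1427 bases). With exon lengths of 2668 bases for Igha and 1886 bases for Ighm, Ighm would lead in that tumor.

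In level, Igha (chromosome 12 from 113254830 to 113260236) had 1.08, 1.30, 0.965, 0.279 and 0.974 CPM in the B1/P/Rbf tumors. It had 0.0636, 8.12, 27.9, 0.798 and 1.39 CPM in B1/P tumors, 1.38, 4.16, 0.253, 30.8 and 0.647 CPM in P/Rbf tumors, and 8.09, 10.8 and 10.9 CPM in glands. The B1/P/Rbf tumors lay close together and under every gland, although 208855 and 210906 had the highest antibody sums of all tumors, whereas B1/P and P/Rbf each had 1 tumor far above the glands. Against the glands, edgeR's quasi-likelihood test gave -3.43 ± 1.39 for B1/P/Rbf (adjusted p = 0.0624), -0.37 ± 1.36 for B1/P (adjusted p = 0.856) and -0.41 ± 1.36 for P/Rbf (adjusted p = 0.831). The B1/P/Rbf value passed with DESeq2 (adjusted p = 0.0186) and with only the 2 groups fitted (adjusted p = 0.000414). Between tumors, edgeR's log2 fold change of Igha was -3.06 ± 1.29 in B1/P/Rbf against B1/P (adjusted p = 0.114) and -3.02 ± 1.29 against P/Rbf (adjusted p = 0.258), and the former passed with DESeq2 (adjusted p = 0.0279). Without tumor 246361 the former was -1.50 and B1/P against glands was -1.94, and without tumor 287822 the latter was -0.81 and P/Rbf against glands was -2.62, none of them called.

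A ratio within a sample needs no scaling factor, so 7 log2 ratios of constant regions were compared in the 6 pairs of groups by exact two-sided permutation tests. None of the 42 tests passed, and every adjusted p was 0.984. The smallest p that 5 against 5 and 5 against 3 samples allow is 0.00794 and 0.0179. After Benjamini-Hochberg adjustment over 42 tests, 1 ratio alone at either of these values could not have passed. The tests therefore cannot decide whether a single ratio differs between 2 groups. The Igha to Ighm ratio was higher than in every gland in 4 of 5 P/Rbf tumors, with a mean log2 difference of 3.44 (exact permutation p = 0.0714, n = 5 and 3), and in 4 of 5 B1/P tumors, with a difference of 2.85 (exact permutation p = 0.125, n = 5 and 3). In B1/P/Rbf tumors the difference from glands was 0.70 (exact permutation p = 0.696, n = 5 and 3), with 3 tumors above and 2 below every gland. The mean log2 difference of B1/P/Rbf from B1/P tumors was -2.15 (exact permutation p = 0.238, n = 5 and 5) and that from P/Rbf tumors was -2.74 (exact permutation p = 0.151, n = 5 and 5). P/Rbf and B1/P tumors differed by 0.59 (exact permutation p = 0.73, n = 5 and 5). The SD within each tumor genotype was between 2.48 and 2.78.

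The epithelial receptor that transports dimeric IgA and pentameric IgM was read beside Igha. Pigr had 58.0, 13.8 and 70.3 CPM in tumors 225070, 246361 and 287822, which IgA led per kilobase of coding sequence. It had 29.6 CPM in tumor 287842, where IgA was 2.52% of heavy constant RNA, and between 0.662 and 16.9 CPM in the other 11 tumors. The glands had 0.899, 1.70 and 0.982 CPM. Against the glands, edgeR's quasi-likelihood test gave log2 fold changes of 2.42 ± 1.59, 3.64 ± 1.70 and 4.23 ± 1.75 in the same order of genotypes, none of which passed (adjusted p = 0.247, 0.107 and 0.0661). Among the other antibody receptors, Fcgr1 and Fcgr4, activating IgG receptors of myeloid cells, were called higher in all 3 tumor genotypes, with log2 fold changes between 1.85 and 2.80 and between 3.03 and 3.78. Fcgrt, the neonatal receptor that recycles IgG, was called lower in all 3 (log2 fold changes between -3.41 and -2.52), as was Fcmr, the IgM receptor of lymphocytes (between -7.93 and -6.36). In all, 3, 5 and 2 of the 11 tested antibody receptors were called higher, where 17.1%, 16.8% and 17.4% of all genes were, and 3 were called lower in each genotype, where 20.0%, 16.9% and 20.3% of all genes were. Of 8 macrophage markers 2, 7 and 1 were called higher and 0 lower, and they summed to between 228 and 333 CPM in glands and to between 228 and 1628 CPM in tumors. The part of the macrophage markers in the receptor levels, and of the receptors in the antibody levels, was not tested.

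The IgG share of heavy constant RNA was highest in P/Rbf tumor 287842, where Ighg1 led the subclasses. In the 5 tumors with the next highest IgG shares Ighg2c led. The IgG share was 36.2% in P/Rbf tumor 287842 (34.1% to 38.3%), of which Ighg1 made 19.9% and Ighg3 9.05% of heavy constant RNA. It was 28.0% in B1/P/Rbf tumor 208855 (26.6% to 29.5%), where Ighg2c made 14.8% and Ighg2b 10.8%. Ighg2c made 13.6% of heavy constant RNA in tumor 246361 (IgG 19.4%), 12.4% in 255232 (IgG 17.9%), 8.27% in 208857 (IgG 17.7%) and 11.1% in 248662 (IgG 14.7%). The glands differed among themselves, with 2.02%, 18.4% and 8.15%. Ighg1 had 0.195, 47.0 and 1.29 CPM in glands 330154, 330155 and 330156, 11.0 CPM in tumor 287842, 3.73 CPM in tumor 210906 and at most 0.737 CPM in the other 13 tumors. One gland thus carried nearly all gland Ighg1. edgeR's quasi-likelihood test gave -6.30 ± 2.11 for B1/P against glands (adjusted p = 0.0287), -4.19 ± 1.93 for B1/P/Rbf (adjusted p = 0.0972) and -2.77 ± 1.84 for P/Rbf (adjusted p = 0.249). Without gland 330155 these became -1.83, 0.32 and 1.75, with none called. The B1/P call was also lost without tumor 225068, 225070, 255232 or 248662 (edgeR adjusted p between 0.0529 and 0.0558), whereas B1/P/Rbf was called without tumor 210906 (0.0302) and P/Rbf without tumor 287842 (0.0228).

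In level, the other subclasses were high in few tumors. Ighg2b had 10.9 CPM in tumor 208855, 4.35 CPM in tumor 210906 and at most 2.51 CPM elsewhere among tumors, against 2.46, 15.9 and 9.14 CPM in glands. Ighg2c, the subclass that C57BL strains carry in place of IgG2a, reached 15.0 CPM in tumor 208855 and 7.19 CPM in tumor 246361, against 0.938, 6.87 and 7.52 CPM in glands. Ighg3 reached 5.09 CPM in tumor 287842 and 1.99 CPM in tumor 208855, was 0.432 CPM or less in the other 13 tumors, and was 1.06, 3.47 and 2.98 CPM in glands. Of these 3 subclasses edgeR's quasi-likelihood test called only Ighg3 in B1/P against glands (-5.37 ± 2.00, adjusted p = 0.0467), and the call was lost without any 1 of tumors 225068, 225070, 246361, 255232 and 248662 or of the 3 glands (adjusted p between 0.0659 and 0.1003). The log2 fold change itself stayed between -5.73 and -5.03 with 1 mouse left out.

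**Figure D2:**
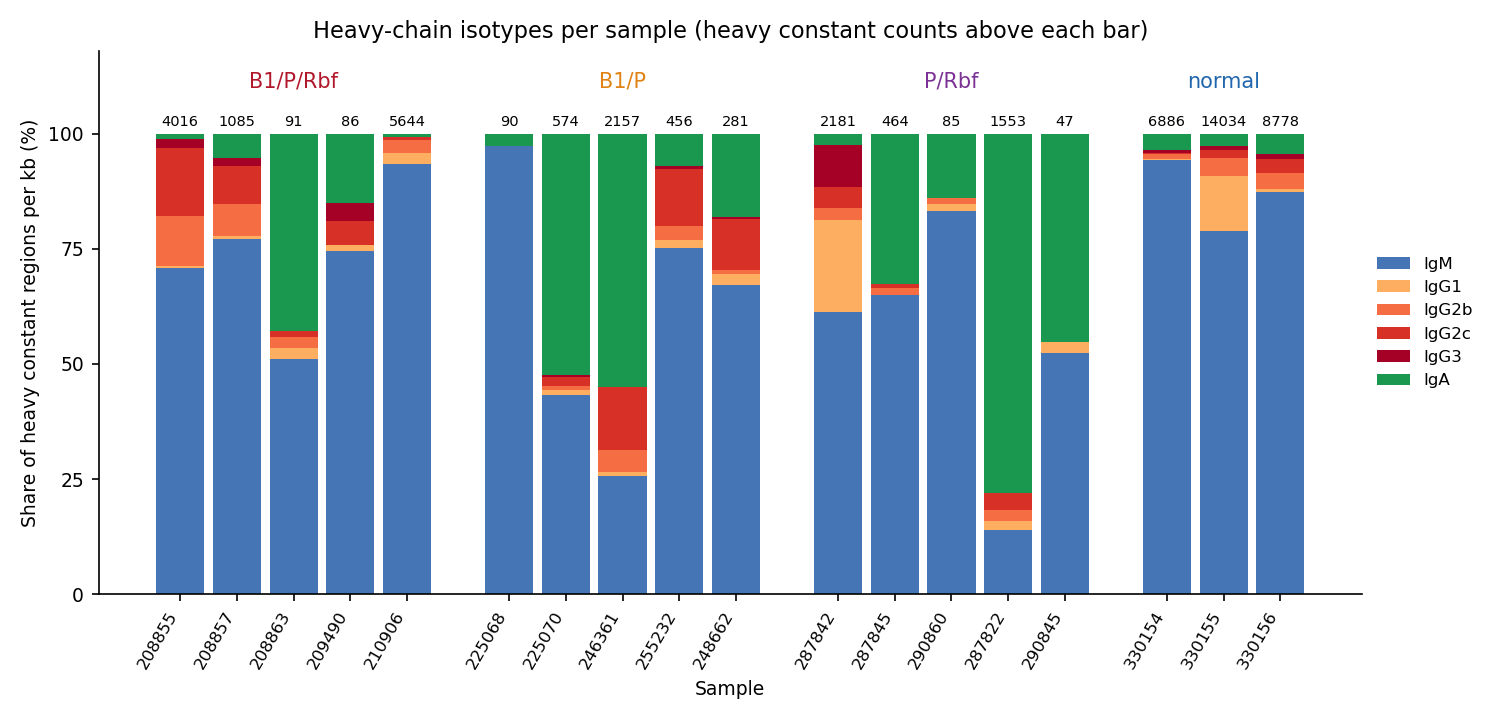
Shares of heavy constant RNA per kilobase of coding sequence in each sample, in percent, with the heavy constant counts above each bar. IgA took 52.4%, 54.9% and 78.0% in tumors 225070, 246361 and 287822 and at most 4.41% in the glands.

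Among the 10 member constant regions, the lambda genes Iglc2 and Iglc3 had the largest fitted log2 fold changes between tumors and glands in each genotype. Ighd, which is not a member, had larger ones than Iglc2 (-7.73, -10.45 and -8.45). The lambda locus on mouse chromosome 16 has few constant regions, 3 of which are members, and Iglc2 and Iglc3 are near copies. Their coding sequences differ at 12 positions (96.2% identity), whereas Iglc1 and Iglc2 differ at 84 (73.5%). The first 300 bases of each annotated coding sequence (GENCODE M21, GRCm38, minus strand, 5′ to 3′) are shown, because reads from Iglc2 and Iglc3 can be split between them. Capitals mark bases of Iglc1 and Iglc3 that differ from Iglc2 in a pairwise alignment, gaps not shown.

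Iglc1: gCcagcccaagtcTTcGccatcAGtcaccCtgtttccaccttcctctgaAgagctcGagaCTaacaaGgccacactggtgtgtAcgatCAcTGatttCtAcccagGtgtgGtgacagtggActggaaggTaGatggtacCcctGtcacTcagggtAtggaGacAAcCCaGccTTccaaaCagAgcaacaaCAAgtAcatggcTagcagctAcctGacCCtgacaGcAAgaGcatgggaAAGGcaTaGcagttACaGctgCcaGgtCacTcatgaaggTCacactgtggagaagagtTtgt
Iglc2: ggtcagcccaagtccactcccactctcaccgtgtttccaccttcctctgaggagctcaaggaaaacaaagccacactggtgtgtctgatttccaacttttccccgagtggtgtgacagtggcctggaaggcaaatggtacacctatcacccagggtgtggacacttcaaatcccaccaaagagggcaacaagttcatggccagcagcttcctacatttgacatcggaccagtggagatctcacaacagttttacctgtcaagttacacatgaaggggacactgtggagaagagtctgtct
Iglc3: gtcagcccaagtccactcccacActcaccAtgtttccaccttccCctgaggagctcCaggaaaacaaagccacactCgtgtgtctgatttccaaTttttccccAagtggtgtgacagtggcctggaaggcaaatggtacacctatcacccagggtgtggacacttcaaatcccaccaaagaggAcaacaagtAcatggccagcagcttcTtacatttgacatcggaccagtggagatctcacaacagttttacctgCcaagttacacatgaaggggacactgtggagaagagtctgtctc

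Iglc2 (chromosome 16 from 19198396 to 19200351) had 22.9, 27.7 and 24.2 CPM in the glands. In tumors, Iglc2 had 0.454, 0.836, 0, 0.0761 and 0.552 CPM (the B1/P/Rbf group), 0.0318, 0.148, 0.251, 0 and 0.0315 CPM in B1/P tumors and 0.259, 0.0315, 0.0253, 0.132 and 0.0340 CPM in P/Rbf tumors. No tumor came near a gland. In edgeR's quasi-likelihood test the log2 fold change against glands was -6.01 ± 1.08 in B1/P/Rbf (adjusted p = 0.000383), -7.99 ± 1.19 in B1/P (adjusted p = 8.43e-05) and -7.95 ± 1.19 in P/Rbf tumors (adjusted p = 6.6e-05). Iglc3 (chromosome 16 from 19065230 to 19065681) had 14.4, 16.7 and 15.9 CPM in the glands and at most 0.596 CPM in any tumor, with edgeR values of -5.85 ± 1.31, -8.20 ± 1.47 and -7.19 ± 1.39 (adjusted p = 0.00216, 0.00043 and 0.000685). Iglc1 (chromosome 16 from 19061618 to 19062071) had 4.42, 7.69 and 5.55 CPM in the glands and at most 0.974 CPM in tumors, and edgeR gave -3.97 ± 1.35, -5.05 ± 1.42 and -5.27 ± 1.43 (adjusted p = 0.029, 0.0113 and 0.00811). The B1/P/Rbf call of Iglc1 was lost without tumor 208857, 208863 or 209490 or any 1 gland (adjusted p between 0.0528 and 0.0778). With 1 mouse left out its B1/P/Rbf log2 fold change stayed between -4.70 and -3.67. With the library term the call of Iglc1 was lost in B1/P/Rbf (0.463) and B1/P (0.123).

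The lambda share of light constant RNA compares lambda with kappa in the same sample. It was 31.7%, 24.7% and 28.0% in the glands. In the 8 tumors with at least 100 light constant counts it was 4.09%, 9.46% and 2.44% (B1/P/Rbf 208855, 208857 and 210906), 3.09%, 3.42% and 1.71% (B1/P 225070, 246361 and 255232) and 2.83% and 3.93% (P/Rbf 287842 and 287822). All 8 lay below every gland, and the highest upper Wilson bound among them was 12.2%, against a lowest gland bound of 23.7%. In the 7 tumors with fewer counts the share ranged from 4.24% to 50.4%, on 2 to 71 light constant counts, and the Wilson intervals of 5 of these 7 reached the range of the glands. B1/P tumor 248662 had 24.1% (15.6% to 35.3%), of which lambda 1 made 22.7%. The log2 ratio of Iglc2 to Igkc, tested over all samples with 0.5 added to each count, differed from the glands by -2.92 in B1/P/Rbf tumors (exact permutation p = 0.0536, n = 5 and 3), -2.87 in B1/P (exact permutation p = 0.125, n = 5 and 3) and -2.09 in P/Rbf (exact permutation p = 0.25, n = 5 and 3). In each genotype 4 of 5 tumors lay below every gland, and none of these tests passed, which 1 ratio alone could not have done at these sample sizes.

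The table held 3 lambda V segments, all of them members. Iglv1, which recombines mainly with lambda 1 and lambda 3, had 2.38, 4.06 and 3.66 CPM in glands and at most 1.13 CPM in tumors. edgeR's quasi-likelihood test called it lower in B1/P (-4.30 ± 1.39, adjusted p = 0.0244) and P/Rbf (-4.34 ± 1.39, adjusted p = 0.0211) but not in B1/P/Rbf (-3.11 ± 1.33, adjusted p = 0.0759). Iglv2 and Iglv3 had between 0.782 and 1.15 CPM in glands and at most 0.227 CPM in tumors. Both met the count rule only with the glands, so their lower level in tumors is a description. In the glands Iglv1 held 57.3%, 67.0% and 64.7% of Iglv counts, although Iglc2 and Iglc3 together held 28.4%, 21.1% and 24.6% of light constant RNA against 3.33%, 3.62% and 3.39% for Iglc1.

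**Figure D3:**
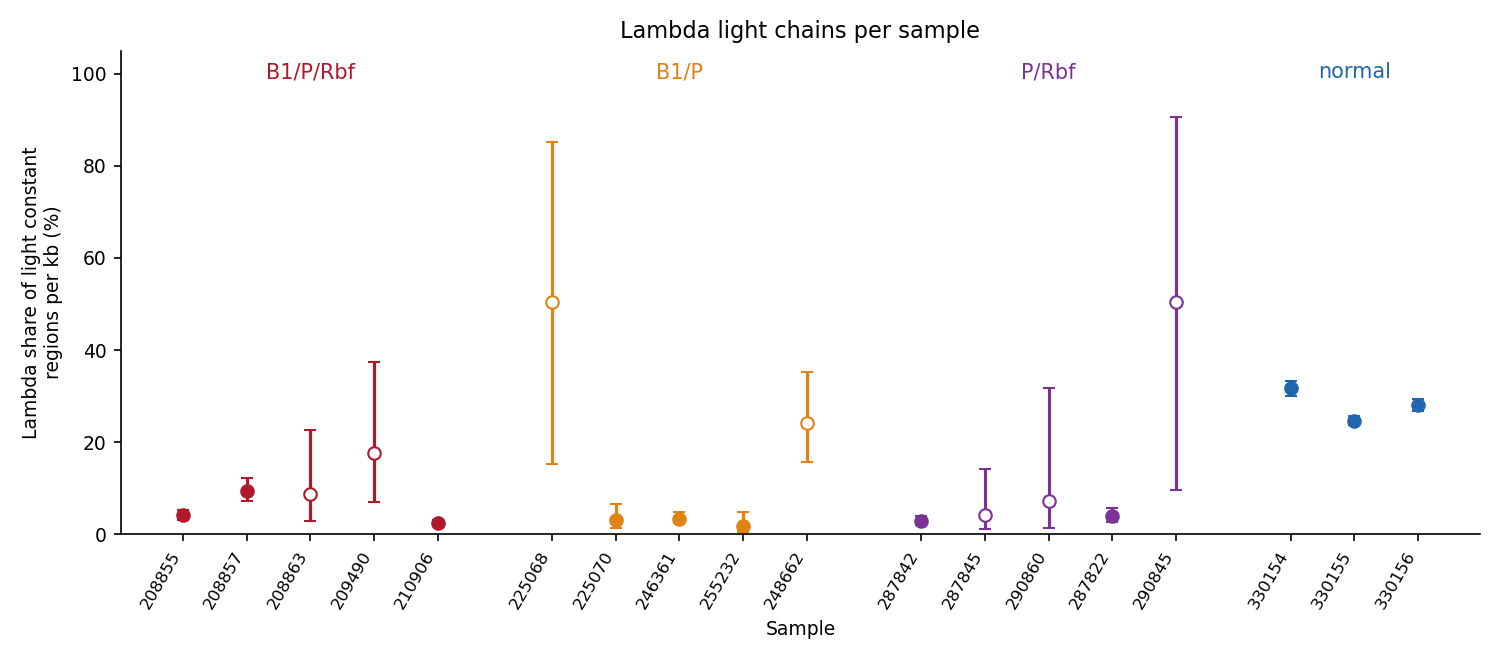
Lambda share of light constant RNA per kilobase of coding sequence in each sample, in percent, with 95% Wilson intervals; filled points have at least 100 light constant counts and open points fewer. The 8 filled tumor points lie between 1.71% and 9.46% and the glands between 24.7% and 31.7%.

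Against the glands, the tested members leaned down in all tumor genotypes. Of the 61 members 58 passed edgeR's filter on low counts, and Igkv14-126, Igkv4-91 and Igkv8-21 did not. edgeR's quasi-likelihood test called 20 of 58 lower in B1/P/Rbf, where 20.0% of all tested genes were called lower, 31 of 58 in B1/P (16.9% of all genes) and 32 of 58 in P/Rbf (20.3% of all genes). No member was called higher, against 17.1%, 16.8% and 17.4% of all genes. The median log2 fold changes of the members were -2.67, -4.07 and -4.07, and those of all tested genes were 0.05, 0.12 and 0.05. Tumors and glands did not overlap, with tumors lower, for 34, 44 and 48 of the 58 members, against 27.4%, 22.7% and 26.5% of all tested genes. These counts describe the list and are not evidence about it, because the gland counts helped to choose the members. Among the 21 members that met the rule in tumors alone, 3, 8 and 6 were called lower, beside the 20.0%, 16.9% and 20.3% of all genes. In B1/P/Rbf the 3 of 21 lay below the share of all genes, and these counts too are a description only.

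By class, the counts are a description only. The 10 constant regions met the rule in the tumors alone, whereas 7 of 11 Ighv, 31 of 36 Igkv and 2 of 3 Iglv segments met it only with the glands. In the 3 genotypes in the same order, 3 of the 4 light constant regions were called lower throughout, and these were the lambda genes. Of the 6 heavy constant regions 0, 3 and 1 were called lower. Of 11 Ighv segments 3, 3 and 5, of 33 tested Igkv segments 12, 19 and 20, and of 3 Iglv segments 2, 3 and 3 were called lower, beside the 20.0%, 16.9% and 20.3% of all genes, and the classes were not tested against each other. Gland 330155 had the highest sum, and without it the members called fell to 12, 18 and 21. The share of all genes called without that gland is not given, so the fall is not read as a result about the members.

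**Figure D4:**
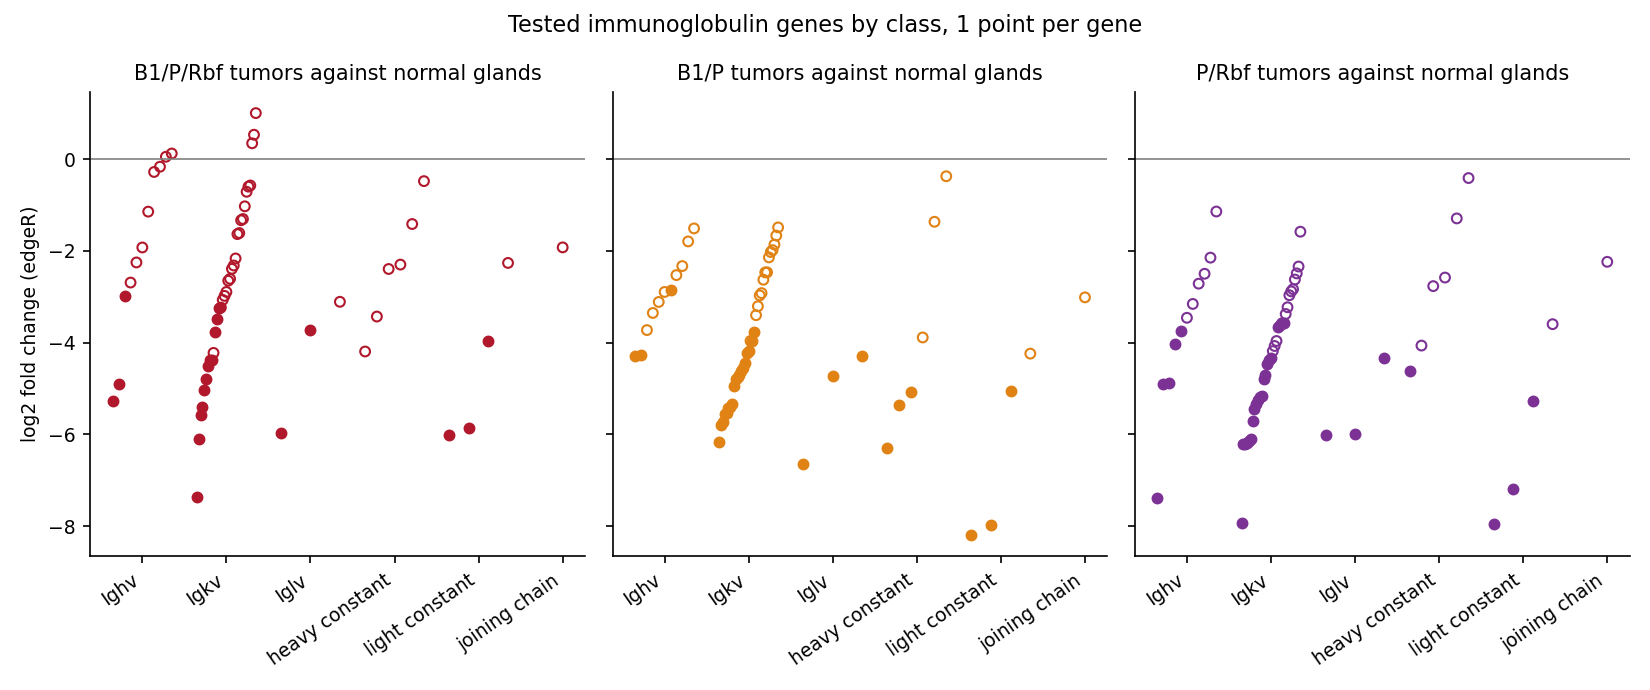
log2 fold changes of the 58 tested members against normal glands from edgeR, by class, 1 point per gene; filled points are called at an adjusted p of 0.05 or less. The lambda constant regions reach -6.01 in B1/P/Rbf, -8.20 in B1/P and -7.95 in P/Rbf tumors.

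Between the tumor genotypes few members were called. In B1/P/Rbf against B1/P, edgeR's quasi-likelihood test called 2 of 58 members, both higher, where 16.7% of all genes were called in either direction and 7.36% higher. An unadjusted edgeR p below 0.05 was found for 12 members (31.3% of all genes). DESeq2 called 4 of the 53 members to which it gave an adjusted p (23.3% of all such genes), and limma-voom called 0 of 58 (16.0%). In B1/P/Rbf against P/Rbf edgeR called 0 of 58 (0.281% of all genes were called), with 12 members at an unadjusted p below 0.05 (16.1% of all genes). DESeq2 called 1 of 39 members with an adjusted p (5.53%) and limma-voom 0 of 58 (0.136%). In P/Rbf against B1/P edgeR called 0 of 58 (19.2% of all genes), with 2 at an unadjusted p below 0.05 (34.5% of all genes), and DESeq2 called 0 of 53 (26.5%) and limma-voom 0 of 58 (16.5%). The median log2 fold change of the members was 1.31, 1.96 and -0.04 in these 3 comparisons, against -0.06, -0.01 and -0.05 for all genes. Ighm differed by 2.69 ± 1.12 between B1/P/Rbf and B1/P (edgeR adjusted p = 0.108, and 0.0275 with DESeq2) and by 2.22 ± 1.09 between B1/P/Rbf and P/Rbf (edgeR adjusted p = 0.332). Igkc differed by 1.98 ± 1.42 and 1.33 ± 1.39 (edgeR adjusted p = 0.361 and 0.692). These values hung on single mice. Without tumor 210906 Ighm differed by 1.66 and 1.19 and Igkc by 1.11 and 0.47, without tumor 246361 Igkc differed from B1/P by 3.03, and without tumor 287842 Ighm and Igkc differed from P/Rbf by 3.51 and 2.49, none of them called. With the term for library sets Igkc differed from P/Rbf by 0.0077. No member separated 2 tumor genotypes without overlap, a pattern shown with B1/P/Rbf lower or higher than B1/P by 5.48% and 5.00% of all genes, lower or higher than P/Rbf by 1.31% and 1.71%, and with P/Rbf lower or higher than B1/P by 5.11% and 3.74%.

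Both called members were kappa V segments of low count, and they are named here after their values were seen. Igkv6-20 (chromosome 6 from 70335841 to 70336507) had 10, 16, 0, 0 and 68 counts in the B1/P/Rbf tumors and 1 count in all B1/P tumors together. Igkv5-39 (chromosome 6 from 69900424 to 69900977) had 11, 27, 0, 0 and 2 counts in the B1/P/Rbf tumors and 1 count in all B1/P tumors together. In both, B1/P/Rbf tumors 208863 and 209490 were at 0, as were 4 of 5 B1/P tumors. Igkv6-20 reached 10 counts only in B1/P/Rbf tumors 208855, 208857 and 210906 and in glands 330155 (15.3) and 330156 (14). Without the B1/P/Rbf tumors it would not be a member, so its call is a description and not evidence about it. Igkv5-39 met the count rule only with the glands (11, 33 and 16 counts). The ratio of summed counts per library total was 90.4 for Igkv6-20 (exact interval 15.8 to 3607) and 38.5 for Igkv5-39 (6.52 to 1556), intervals that cover counting error only. The fitted log2 fold changes, 5.93 ± 1.54 (edgeR adjusted p = 0.0151) and 4.56 ± 1.31 (edgeR adjusted p = 0.0253), depend on edgeR's prior count. In edgeR's quasi-likelihood test Igkv6-20 lost its call without tumor 210906 (adjusted p = 0.0517), and Igkv5-39 without tumor 208857 (0.0919), 225068 (0.0542), 246361 (0.0567) or 248662 (0.0541). With 1 mouse left out the log2 fold changes ranged from 4.25 to 7.30 for Igkv6-20 and from 3.34 to 5.93 for Igkv5-39. Neither was called by limma-voom (adjusted p = 0.123 and 0.143) or with a term for 2 sets of libraries (0.0534 and 0.0607).

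V segment use differed from tumor to tumor. The V segments held 1.87% to 15.7% of member counts, since most reads fell in constant regions, and the 14 J segment rows of the table held 0 counts. The leading segments of tumors 210906, 287842, 287822, 246361 and 208857, the nearest relative of Igkv1-117 and both segments called between tumor genotypes are shown with 300 bases of coding sequence each (GENCODE M21), because V segments have near copies: of 50 V members, 28 had another annotated segment of their class at 95% identity or more, and the median identity to the nearest segment was 95.4%. The stretches run from base 47 to 346 for Igkv1-117 and Igkv1-110, 5 to 304 for Igkv3-2, 1 to 300 for Igkv5-43, 43 to 342 for Igkv5-39 and 45 to 344 for Igkv6-20, 5′ to 3′. Capitals mark the bases that differ from the nearest segment, which is Igkv3-1 for Igkv3-2, Igkv1-110 for Igkv1-117 and the reverse, Igkv5-45 for Igkv5-43 and Igkv5-39, and Igkv6-29 for Igkv6-20.

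Igkv3-2: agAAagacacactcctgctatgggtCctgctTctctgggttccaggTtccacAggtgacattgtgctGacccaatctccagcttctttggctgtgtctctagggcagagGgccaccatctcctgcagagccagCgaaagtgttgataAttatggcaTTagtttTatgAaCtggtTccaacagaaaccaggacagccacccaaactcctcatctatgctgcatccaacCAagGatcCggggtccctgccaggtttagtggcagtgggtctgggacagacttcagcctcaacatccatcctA
Igkv1-117: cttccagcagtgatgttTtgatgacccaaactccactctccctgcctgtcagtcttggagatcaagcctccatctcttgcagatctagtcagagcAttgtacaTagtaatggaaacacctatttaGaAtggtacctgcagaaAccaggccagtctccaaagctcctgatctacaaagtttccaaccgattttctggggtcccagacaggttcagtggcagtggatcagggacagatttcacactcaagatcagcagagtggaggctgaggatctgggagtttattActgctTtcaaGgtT
Igkv1-110: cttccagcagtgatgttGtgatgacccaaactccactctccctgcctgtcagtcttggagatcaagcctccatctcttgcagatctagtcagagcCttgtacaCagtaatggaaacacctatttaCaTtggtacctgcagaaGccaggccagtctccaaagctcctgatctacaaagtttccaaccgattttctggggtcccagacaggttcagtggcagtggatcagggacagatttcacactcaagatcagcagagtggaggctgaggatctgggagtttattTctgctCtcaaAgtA
Igkv5-43: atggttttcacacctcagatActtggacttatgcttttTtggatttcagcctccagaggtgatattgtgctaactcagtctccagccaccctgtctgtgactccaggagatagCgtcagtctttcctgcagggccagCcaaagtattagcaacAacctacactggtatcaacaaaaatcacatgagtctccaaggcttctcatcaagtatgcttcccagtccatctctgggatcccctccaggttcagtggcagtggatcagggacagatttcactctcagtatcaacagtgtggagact
Igkv5-39: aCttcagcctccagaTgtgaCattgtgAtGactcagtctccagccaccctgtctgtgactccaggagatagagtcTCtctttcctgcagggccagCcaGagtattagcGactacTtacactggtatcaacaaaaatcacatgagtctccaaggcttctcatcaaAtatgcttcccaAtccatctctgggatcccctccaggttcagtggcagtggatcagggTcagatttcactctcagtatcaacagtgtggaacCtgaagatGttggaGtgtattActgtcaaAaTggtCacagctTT
Igkv6-20: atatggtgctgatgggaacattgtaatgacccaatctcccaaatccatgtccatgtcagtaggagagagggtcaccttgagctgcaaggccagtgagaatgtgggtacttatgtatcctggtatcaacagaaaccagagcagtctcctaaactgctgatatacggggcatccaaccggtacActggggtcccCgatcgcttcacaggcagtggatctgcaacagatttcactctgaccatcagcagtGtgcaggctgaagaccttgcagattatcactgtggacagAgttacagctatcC

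Shares of V counts are given over the 50 member segments, which were chosen partly through the glands, and then over all V rows of the table. In the glands no V segment passed 8.79% of member V counts. Their leading V segment was Igkv1-117 with 7.71% of these in gland 330154, Igkv1-135 with 7.98% in gland 330155 and Igkv1-117 with 8.79% in gland 330156. Over all V rows the same segments led with 5.46%, 5.42% and 6.61%. Igkv1-117 had 2.74, 2.98 and 3.96 CPM in the glands, and differs from Igkv1-110 at 10 bases.

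In tumors with at least 100 member V counts, 1 segment took up to 22.9% of them. Igkv3-2 made 22.1% of member V counts in B1/P/Rbf tumor 210906 (218 counts, 95% Wilson interval 19.7% to 24.8%) and 21.3% in P/Rbf tumor 287842 (16.2% to 27.3%). Igkv1-117 made 22.9% in P/Rbf tumor 287822 (19.1% to 27.5%), Igkv4-55 made 19.7% in B1/P tumor 225070 (13.9% to 27.2%) and Igkv5-39 made 18.9% in B1/P/Rbf tumor 208857 (13.3% to 26.1%). The leading share was lower in B1/P tumor 246361, where Igkv5-43 made 12.8% (10.3% to 15.9%), and in B1/P/Rbf tumor 208855, where Igkv6-15 and Igkv4-55 tied at 9.91% (8.01% to 12.2%). The lower bounds of 6 of these 7 tumors exceeded, and that of tumor 208855 fell below, the highest gland share of 8.79%. Over all V rows, an alternative added after the data were seen, the shares of the same segments were lower, at 17.3% in tumor 210906, 15.4% in 287842, 17.0% in 287822, 15.8% in 225070, 14.3% in 208857, 9.79% in 246361 and 7.00% in 208855. The lower bound was again below the highest gland share, here 6.61%, in tumor 208855 (5.65%) and above it in the other 6. Each segment was picked because it led in its sample, and V counts differed between samples. The intervals cover counting error only, so these comparisons with glands are a description.

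Igkv3-2 shows how 1 mouse can set a group mean. The B1/P/Rbf tumors had 0.596, 0.216, 0, 0 and 7.08 CPM, and the levels were 0, 0.178, 0.302, 0.384 and 0 CPM in B1/P tumors, 1.27, 0, 0, 0.0263 and 0 CPM in P/Rbf tumors, and 0.743, 0.524 and 1.08 CPM in glands. Tumors 210906 and 287842 stood above all glands, and the remaining 13 tumors lay below the highest gland. edgeR's quasi-likelihood test called Igkv3-2 in no comparison with glands (adjusted p = 0.708, 0.385 and 0.515 in the order of genotypes used above). By group mean, the first 2 segments were Igkv3-2 and Igkv6-15 in B1/P/Rbf, Igkv5-43 and Igkv1-110 in B1/P, Igkv1-117 and Igkv1-110 in P/Rbf, and Iglv1 and Igkv1-117 in glands. For each of the 50 V members, the tumor with the highest count held a median of 48.0% of the counts of all 15 tumors, and this tumor was 210906 for 17, 208855 for 12 and 246361 for 11 of them. In 18 of 50 V members some tumor exceeded every gland.

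Heavy V segments had fewer counts, and their shares depended more on the rows counted. Ighv1-26 made 34.6% of member Ighv counts in B1/P/Rbf tumor 208855, Ighv1-55 made 23.8% in B1/P/Rbf tumor 210906, Ighv1-81 made 34.1% in P/Rbf tumor 287822 and Ighv1-72 made 39.5% in P/Rbf tumor 287842. Ighv1-64 led both B1/P tumors 225070 (55.6%, 20 counts) and 246361 (19.9%, 21 counts). The leading Ighv share of the glands was 15.2%, 14.9% and 13.9%. Over all Ighv rows these segments made 19.0% in tumor 208855, 15.4% in 210906, 16.7% in 287822, 31.2% in 225070 and 9.68% in 246361, whereas in 287842 Ighv5-17, which is not a member, led with 24.4%. The glands then had 5.83%, 9.30% and 5.44%. In B1/P tumor 225068, 19 of the 22 counts over all V rows fell on Igkv14-111, its only member V segment with a count, while Igkc had 2 counts.

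The number of V segments was compared at equal depth, because the V counts ranged from 2 in P/Rbf tumor 290860 to 1792 in gland 330155. With all counts, the effective number of segments (the exponential of the Shannon entropy, the number of equally used segments that would give the same spread) was 37.4, 37.4 and 38.5 in glands. The B1/P/Rbf tumors had 23.3, 22.2, 6.73, 3.78 and 19.0, and the others had 1.00, 16.3, 26.3, 11.5 and 7.93 in B1/P tumors and 16.2, 8.62, 2.00, 18.6 and 3.00 in P/Rbf tumors. These follow the V counts and are not comparable between shallow and deep samples. Thinned to 100 V counts, 37.6, 37.2 and 38.8 of the 50 member segments were expected in the glands. At that depth 27.0, 30.7 and 26.1 were expected in B1/P/Rbf tumors 208855, 208857 and 210906, 23.9 and 31.7 in B1/P tumors 225070 and 246361, and 24.5 and 28.1 in P/Rbf tumors 287842 and 287822. All 7 tumors lay below every gland, and the 8 shallower tumors gave no value. Since the glands helped to choose the member segments, the count was repeated over all V rows of the table, and again the tumors (34.3 to 45.3) lay below the glands (55.5 to 57.4). No genotype stood apart from the others in these 7 tumors. Thinning to the lowest V total, 2 counts, leaves 1.94, 1.89 and 1.97 segments at the median of B1/P/Rbf, B1/P and normal samples and cannot show a difference.

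**Figure D5:**
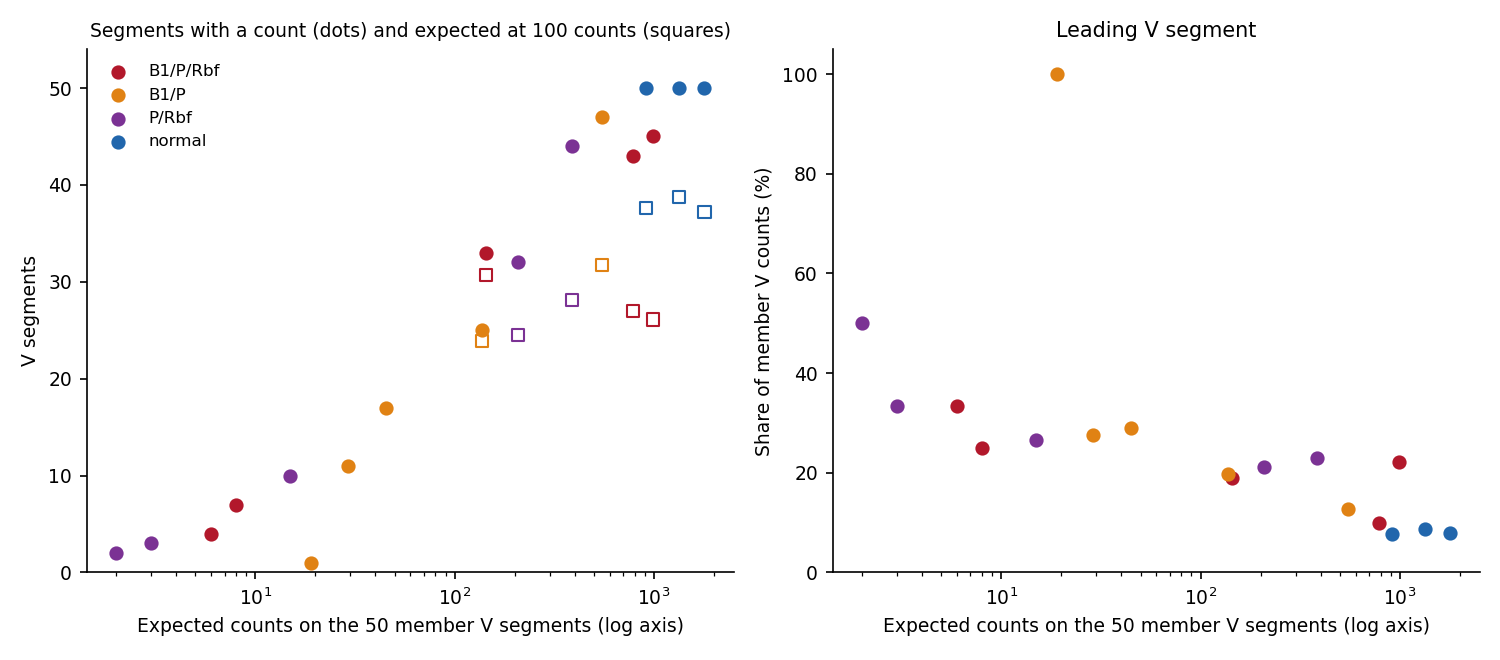
Left, V segments with a count (dots) and expected at 100 V counts (squares) against the V counts of each sample on a log axis, over the 50 V members. Right, the share of the leading V segment in percent of the counts of these 50: the glands have 7.71% to 8.79%, and tumor 225068 has its 19 member V counts on 1 segment, with 22 counts on 4 segments over all V rows.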

How the data were processed

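Bulk RNA was sequenced from 15 mammary tumors and 3 normal glands as stranded, paired-end mRNA libraries. The deposited values are expected counts per gene, which the authors made with RSEM 1.3.0 after trimming with cutadapt 1.18 (per the submitters' processing notes). The study's methods name a human reference, but all 55450 gene IDs match GENCODE M21 of mouse build GRCm38, which was used for names, lengths and coordinates. RSEM divides reads between near-identical genes, so single V segments and the lambda constant regions are uncertain. Of the deposited values 5.61% were not whole and were rounded for the tests.

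The members and gene lists were chosen with earlier results of these data known. All 18 samples were fitted together by group with edgeR 4.0.16 (TMM, filterByExpr with a minimum count of 10, quasi-likelihood test, Benjamini-Hochberg adjustment over 19186 genes, called at 0.05) in R 4.3.3. DESeq2 1.42.0 and limma 3.58.1 were alternatives. Shares were per kilobase of the longest coding sequence, ratios had 0.5 added and used exact two-sided permutation tests, and Wilson intervals covered 95%. Thinning to 100 counts and exon lengths were chosen after seeing the data. The fit and the permutation test were tested on simulated data. Named were all constant regions and Jchain, the leading V segments of each sample, the 2 V segments with the highest mean level in each group and list genes. Libraries held 27661173 to 37794889 counts, and no 2 of a group were duplicates (chi-square per degree of freedom at least 25.0). The labels give separate mice. Labels name no batch. Some genes of the marker lists are not reported here and were left out of the sums.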

Additional observations from a re-analysis of the deposited data

Results flagged for a closer look

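In 16 of 51 groups of 5 tumors, 1 sample lay far from the other 4 (gap to the nearest sample over the range above 0.71). This cut flags about 5% of groups of normally distributed values. The levels here are skewed and the groups share mice, so 16 of 51 is not compared with that rate. B1/P tumor 246361 stood out for Igha at 27.9 CPM, Igkc at 20.2 CPM, Ighg2c at 7.19 CPM, Ighg2b at 2.51 CPM, Iglc3 at 0.176 CPM and the summed immunoglobulin level at 94.7 CPM. P/Rbf tumor 287842 stood out for Ighm at 41.1 CPM, Ighg1 at 11.0 CPM, Ighg3 at 5.09 CPM, Iglc3 at 0.431 CPM and an IgG share of 36.2% of heavy constant RNA. P/Rbf tumor 287822 stood out for Igha at 30.8 CPM. B1/P/Rbf tumor 208855 stood out for Ighg2c at 15.0 CPM and Ighg3 at 1.99 CPM, and B1/P/Rbf tumor 210906 for Ighg1 at 3.73 CPM. The lambda share of 50.4% in P/Rbf tumor 290845 rests on 2 light constant counts.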

How the results depend on the processing

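Members called between B1/P/Rbf and B1/P (2 by edgeR) numbered 4 with DESeq2, 0 with limma-voom, 0 with only the 2 groups fitted and 0 with a term for 2 sets of libraries (all B1/P/Rbf and 3 B1/P tumors against the rest). Against P/Rbf, DESeq2 called 1 where edgeR called 0. For B1/P/Rbf against glands (20 called) limma-voom called 35 and the library term left 11, and for B1/P against glands (31) the library term left 16. For these gland counts, and for the 2-group fit and library term between tumors, no share of all genes is given. Nothing about the members is read from them. Leaving out 1 mouse at a time gave 1 to 2 members called between B1/P/Rbf and B1/P, and 12 to 24, 18 to 39 and 21 to 37 against glands in the order of genotypes used above, with the lowest values without gland 330155. The leave-one-out counts also lack a share of all genes and are not read as a result about the members. Leave-one-out summed levels were 60.8 to 135, 16.6 to 39.3 and 24.4 to 51.5 CPM in tumors and 483 to 639 CPM in glands. Ighg1 ranged from -6.52 to 0.32 for B1/P/Rbf and from -6.20 to 1.75 for P/Rbf against glands, with the sign turned without gland 330155. Median effective V segments in B1/P/Rbf (19.0) became 31.3 over all V rows and 7.41 by V family, and in glands (37.4) 84.4 over all rows, 28.9 by inverse Simpson and 15.0 by family. Expected numbers of segments are another measure: at the lowest V total they were 1.94, 1.89 and 1.97 in B1/P/Rbf, in B1/P and in glands, and at 100 counts, where only 2 of 5 B1/P (11.5 effective) and 2 of 5 P/Rbf tumors (8.62 effective) have a value, 27.8 and 26.3. The median gland IgA share (3.64%) was 2.15% per exon length. For the folds of named genes, 249 alternatives kept call and direction, 21 gained a call (Jchain in B1/P against glands among them, adjusted p = 0.0452 with DESeq2 and 0.0387 with limma-voom) and 12 lost one, and leaving out 1 mouse kept 310, gained 8, lost 24 and turned 2. DESeq2 gave no adjusted p for Ighg1 against glands. Without TMM factors the median of all genes against glands moved to 0.42, 0.47 and 0.33, and that of the members moved by a like amount to -2.30, -3.71 and -3.80. The study's own filter left 0 members and gave no value. Beyond these values the cause of each change was not tested. No paired analysis was possible because the groups share no replicate numbers. Low counts limit the isotype shares of the 5 tumors under 100 heavy constant counts, the lambda shares of the 7 under 100 light constant counts and the V shares of the 8 under 100 V counts.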
